A study of Homo sapiens with 12 samples.

Results

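The CD1 family is made up of CD1A, CD1B, CD1C, CD1D and CD1E, and all 5 genes were found in the deposited table of 36601 gene IDs by matching each Ensembl ID to its symbol. CD1 proteins resemble the heavy chain of MHC class I molecules and pair with beta-2 microglobulin, but their groove holds the hydrocarbon tails of lipids in place of a peptide. CD1a, CD1b and CD1c present lipids, including those of mycobacteria, to T cells of diverse receptors, and gamma-delta T cells are among the cells known to recognise CD1c and CD1d. CD1d presents glycolipids to natural killer T cells, and CD1e stays inside the cell, where it helps to load lipids onto the other members. In people, CD1a, CD1b, CD1c and CD1e are known from dendritic cells, Langerhans cells and cortical thymocytes, while CD1d is more widely made, by monocytes, macrophages, B cells and epithelia among others.

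The RNA came from H9, a wild-type and widely used line of human embryonic stem cells, grown with cytokines in a culture meant to yield gamma-delta T cells. The libraries of day 10 are labelled hematopoietic progenitor cells, those of days 15 and 20 T progenitor cells and those of day 25 mature gamma-delta T cells, with 3 libraries a day. From day 10 the medium held serum with DLL4, a ligand of Notch receptors, and the cytokines Flt3L, SCF and IL-7, so day 10 precedes this medium and the later days follow it, and all libraries carry the same batch label. The stem cells were kept on mouse embryonic fibroblasts before differentiation, and the labels name no sorting of cells, nor whether the 3 libraries of a day came from separate cultures, so the spread behind each p-value may be technical.

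Each library held between 27026196 and 39811230 counts. A limit of 3 counts, taken for a count of 0 under counting error only, came to 0.0723 to 0.145 CPM. CPM, counts set against a common total, were scaled by the trimmed mean of M values (TMM) and are given with the SD over 3 libraries. The T-cell label of day 25 was checked against its defining genes. CD3D and CD3G, subunits of the T-cell receptor complex, were at 0 counts in all 3 libraries of day 25, and CD3E held 17 counts in total. CD8A held 8 counts, and TRDC, the delta constant region, was at 0.379 ± 0.299 CPM on day 25, against 1.46 ± 0.548 CPM on day 20. TRGC1, the gamma constant region, stood at 10 ± 0.871 CPM on day 25. CD14, a receptor of monocytes and macrophages, was at 424.3 ± 5.18 CPM and CSF1R, the receptor of a macrophage growth factor, at 1373 ± 15.5 CPM on day 25. The libraries are therefore called by their day. In such bulk RNA, a change in the number of cells of a type and a change in RNA per cell cannot be told apart.

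The 5 genes lie side by side on chromosome 1 over 177.6 kb, in the order CD1D, CD1A, CD1C, CD1B and CD1E, and CD1B alone is on the minus strand (GRCh38, GENCODE release 29). CD1D runs over chr1:158179947-158184896, CD1A over chr1:158254137-158258269, CD1C over chr1:158289786-158293630, CD1B over chr1:158327951-158331531 and CD1E over chr1:158353696-158357553, and no annotated gene overlaps any of them. The members differ in their cytoplasmic tails, which decide where each protein travels. The last 63 coding bases of the longest complete coding transcript of each gene are shown because they carry that difference, with capitals marking a tyrosine codon, 2 further codons and a codon of a bulky hydrophobic residue, the pattern that adaptor proteins recognise.
CD1A: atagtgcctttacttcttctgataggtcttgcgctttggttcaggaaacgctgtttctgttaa
CD1B: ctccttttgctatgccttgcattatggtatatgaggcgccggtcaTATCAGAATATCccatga
CD1C: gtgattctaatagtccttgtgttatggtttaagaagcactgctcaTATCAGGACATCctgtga
CD1D: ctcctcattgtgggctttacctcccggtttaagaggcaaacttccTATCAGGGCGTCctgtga
CD1E: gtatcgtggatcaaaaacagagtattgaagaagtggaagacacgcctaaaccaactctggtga
CD1B, CD1C and CD1D each ended in the pattern, with the tyrosine codon 5 codons before the stop codon, while these last 63 bases of CD1A and CD1E held none; the coding sequence of CD1E is longer (388 codons, against 327 to 335 in the others) and was not searched further in. As background, CD1b, CD1c and CD1d proteins recycle through endosomes, and CD1a stays mostly at the surface and in early endosomes.

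The coding sequences of the members were alike enough to ask whether reads could be shared between them. Pairs of members were 70 to 74.4% identical over their aligned coding bases. CD1A and CD1B shared the longest exact run, of 92 bases, CD1B and CD1E shared 88 bases and CD1A and CD1E 80 bases. Of all stretches of 75 bases in their exons, 0.89% in CD1A, 1.97% in CD1B and 1.01% in CD1E occurred in another member, none did in CD1C or CD1D, and no stretch of 100 bases was shared. How long the reads were, and how reads with several matches were treated, is not given in the sources used.

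RefSeq promoter windows (GRCh38.p14, 250 bases before to 50 bases after an annotated start) were at hand for 4 members, with a pair of windows each for CD1A and CD1D. They were searched on both strands for GGAAGT, a core of the sites of ETS factors such as PU.1, which drives myeloid genes. The windows of CD1A at chr1:158248086-158248385, CD1C at chr1:158289673-158289972 and CD1E at chr1:158353644-158353943, all on the plus strand, held it and are printed with it in capitals.
CD1A promoter: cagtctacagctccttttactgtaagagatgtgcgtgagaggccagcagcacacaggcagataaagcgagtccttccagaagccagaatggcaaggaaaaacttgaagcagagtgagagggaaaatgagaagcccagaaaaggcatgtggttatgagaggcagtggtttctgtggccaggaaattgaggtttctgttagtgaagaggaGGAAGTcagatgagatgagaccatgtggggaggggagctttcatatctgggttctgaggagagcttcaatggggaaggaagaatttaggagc
CD1C promoter: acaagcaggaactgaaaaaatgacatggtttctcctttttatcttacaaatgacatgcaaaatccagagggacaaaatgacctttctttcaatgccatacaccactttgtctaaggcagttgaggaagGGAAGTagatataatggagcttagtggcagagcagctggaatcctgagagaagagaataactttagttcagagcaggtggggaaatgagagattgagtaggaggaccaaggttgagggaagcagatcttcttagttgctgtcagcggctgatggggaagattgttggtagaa
CD1E promoter: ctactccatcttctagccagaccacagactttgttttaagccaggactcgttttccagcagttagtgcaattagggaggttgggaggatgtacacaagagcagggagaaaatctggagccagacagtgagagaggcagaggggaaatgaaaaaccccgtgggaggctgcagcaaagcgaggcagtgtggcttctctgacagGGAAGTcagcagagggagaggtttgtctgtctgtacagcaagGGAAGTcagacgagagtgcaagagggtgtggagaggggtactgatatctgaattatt
The motif lay 42 bases before the RefSeq start in CD1A and 122 bases before it in CD1C. In CD1E it lay 49 and 7 bases before the RefSeq start. Counted from the GENCODE gene starts, these RefSeq starts lie at -5801 bases in CD1A, 137 in CD1C and 198 in CD1E. The CD1A window with the motif is thus upstream of the GENCODE gene, and the matches in CD1C and CD1E fall inside the GENCODE genes. The other window of CD1A, with its RefSeq start at 287 bases from the GENCODE start, and both windows of CD1D held none. Of all 35116 windows, 22.8% held at least 1. AGATAA, a core of GATA sites, was found once in the upstream CD1A window and once, on the other strand, in CD1C, against 10.3% of all windows. No window of these genes held TTGCNNAA, a core of C/EBP sites found in 10.5% of all windows, TGANTCA of AP-1 sites (7.71%), TATAAA of the TATA box (11.5%) or the interferon response core of IRF factors (3.57%). A match is a run of letters and says nothing of binding in these cells.

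The CD1 genes together were low on day 10, with CD1D holding most of the counts, and most of the change in their sum came between days 15 and 20. The 5 genes summed to 3.92 ± 0.372 CPM on day 10, 10.1 ± 0.275 CPM on day 15, 68.2 ± 1.33 CPM on day 20 and 67.3 ± 3.35 CPM on day 25. The sum was alike on days 20 and 25, but the genes behind it were not: CD1B was higher on day 25, CD1C was lower on day 25 than on day 20, and CD1A and CD1D had no detectable change in that step. The joint test of the 4 days called all 5 genes, with adjusted p of 4.4e-23 for CD1A, 3.7e-20 for CD1B, 2.4e-29 for CD1C, 9.6e-30 for CD1D and 5.7e-20 for CD1E, but it called 90.5% of all 20183 genes tested as well. All 5 members passed the filter on low counts. Only CD1D held 10 or more counts in every library of all 4 days, whereas CD1C and CD1E did so from day 15 and CD1A and CD1B on days 20 and 25, so these 4 entered the test through the days on which they were high.

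CD1a is the member that defines Langerhans cells and marks cortical thymocytes. CD1A held 1, 14 and 4 counts in the libraries of day 10, 6, 4 and 10 on day 15, 318, 258 and 230 on day 20, and 326, 353 and 278 on day 25. Its level was 0.173 ± 0.163 CPM on day 10, 0.283 ± 0.107 CPM on day 15, 7.97 ± 1.49 CPM on day 20 and 9.22 ± 0.927 CPM on day 25. The first 2 days overlapped, the last 2 days overlapped, and the sets stood far apart. CD1A was 27.3-fold higher on day 20 than on day 15 (log2 fold change 4.77 ± 0.314 SE, adjusted p = 1.3e-17). The difference of day 15 from day 10 was not called (0.62 ± 0.543, adjusted p = 0.31), and it rested on 1 library, since without day 10 replicate 2, the library with 14 counts, it was 1.76 (adjusted p = 0.022). Without that library the difference of day 25 from day 10 was 6.75, against 5.60 with it.

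CD1b has the deepest groove and takes lipids with very long tails. CD1B held 0, 4 and 0 counts on day 10, 6, 4 and 10 on day 15, 31, 41 and 60 on day 20, and 234, 314 and 224 on day 25. A count of 0 was taken to allow up to 0.0952 and 0.101 CPM in those 2 libraries of day 10 (3 counts, counting error only). The level was 0.0334 ± 0.0579 CPM on day 10, 0.283 ± 0.107 CPM on day 15, 1.3 ± 0.439 CPM on day 20 and 7.37 ± 0.2 CPM on day 25. Each day was above the one before in all 3 libraries, and CD1B had its largest jump in counts between days 20 and 25. The log2 fold change was 2.75 ± 0.747 for day 15 over day 10 (adjusted p = 0.0011), 2.16 ± 0.413 for day 20 over day 15 (adjusted p = 9.9e-06) and 2.50 ± 0.284 for day 25 over day 20 (adjusted p = 4.5e-10). Changes against day 10 depended on day 10 replicate 2, the only library of that day with CD1B counts: without it, day 15 over day 10 was 6.15 and day 25 over day 10 was 10.8, against 7.41 with it, so the size of that change is poorly fixed. On day 15 CD1A and CD1B had the same count in each of the 3 libraries. The pair shares the longest exact run in the family, and the part that shared reads have in those 20 counts a gene was not tested.

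CD1c, found on type 2 conventional dendritic cells and some B cells, presents lipids from early and late endosomes. CD1C held 25, 20 and 8 counts on day 10, 63, 56 and 51 on day 15, 798, 912 and 825 on day 20, and 471, 675 and 608 on day 25. Its level was 0.522 ± 0.262 CPM on day 10, 2.47 ± 0.366 CPM on day 15, 25.0 ± 0.987 CPM on day 20 and 16.9 ± 2.36 CPM on day 25. It rose 4.66-fold on day 15 over day 10 (2.22 ± 0.252, adjusted p = 1.6e-10) and 10.2-fold on day 20 over day 15 (3.34 ± 0.157, adjusted p = 7.7e-23). Under TMM, CD1C was the only member called lower at any step, with a log2 change of -0.57 ± 0.121 on day 25 against day 20 (adjusted p = 0.00011), and the 3 libraries of day 25 were all below those of day 20.

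CD1d is the member that natural killer T cells see. CD1D held 91, 134 and 90 counts on day 10, 160, 135 and 161 on day 15, 935, 1080 and 974 on day 20, and 804, 1146 and 898 on day 25. Its level was 3.1 ± 0.242 CPM on day 10, 6.58 ± 0.148 CPM on day 15, 29.5 ± 1.3 CPM on day 20 and 27.2 ± 1.73 CPM on day 25. It was thus the only member with 10 or more counts in every library of day 10. It rose 2.11-fold on day 15 over day 10 (1.08 ± 0.129, adjusted p = 5.5e-10) and 4.48-fold on day 20 over day 15 (2.16 ± 0.105, adjusted p = 2.4e-22). Day 25 against day 20 was not called under TMM (-0.11 ± 0.089, adjusted p = 0.3, 95% interval -0.29 to 0.06), and it was called under library-size scaling (-0.28, adjusted p = 0.0066).

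CD1e is the soluble lysosomal helper of the family. CD1E held 5, 0 and 4 counts on day 10, 10, 12 and 12 on day 15, 160, 135 and 149 on day 20, and 215, 259 and 212 on day 25. Its level was 0.0979 ± 0.0856 CPM on day 10, 0.494 ± 0.0798 CPM on day 15, 4.39 ± 0.5 CPM on day 20 and 6.6 ± 0.31 CPM on day 25. The days did not overlap. It rose on day 15 over day 10 (2.40 ± 0.546, adjusted p = 0.00014) and 8.87-fold on day 20 over day 15 (3.15 ± 0.314, adjusted p = 4.3e-12). The step from day 20 was called at 1.5-fold (0.59 ± 0.228, adjusted p = 0.03), and the call was lost without day 20 replicate 2 (adjusted p = 0.12), day 20 replicate 3 (0.065) or day 25 replicate 1, 2 or 3 (0.081, 0.054 and 0.081), and under library-size scaling (0.42, adjusted p = 0.12). The change of day 25 over day 10 was 6.14, 6.73 without day 10 replicate 1 and 5.45 without day 10 replicate 2, and that of day 15 over day 10 was 2.99 without day 10 replicate 1 and 1.71 without day 10 replicate 2.

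**Figure D1:**
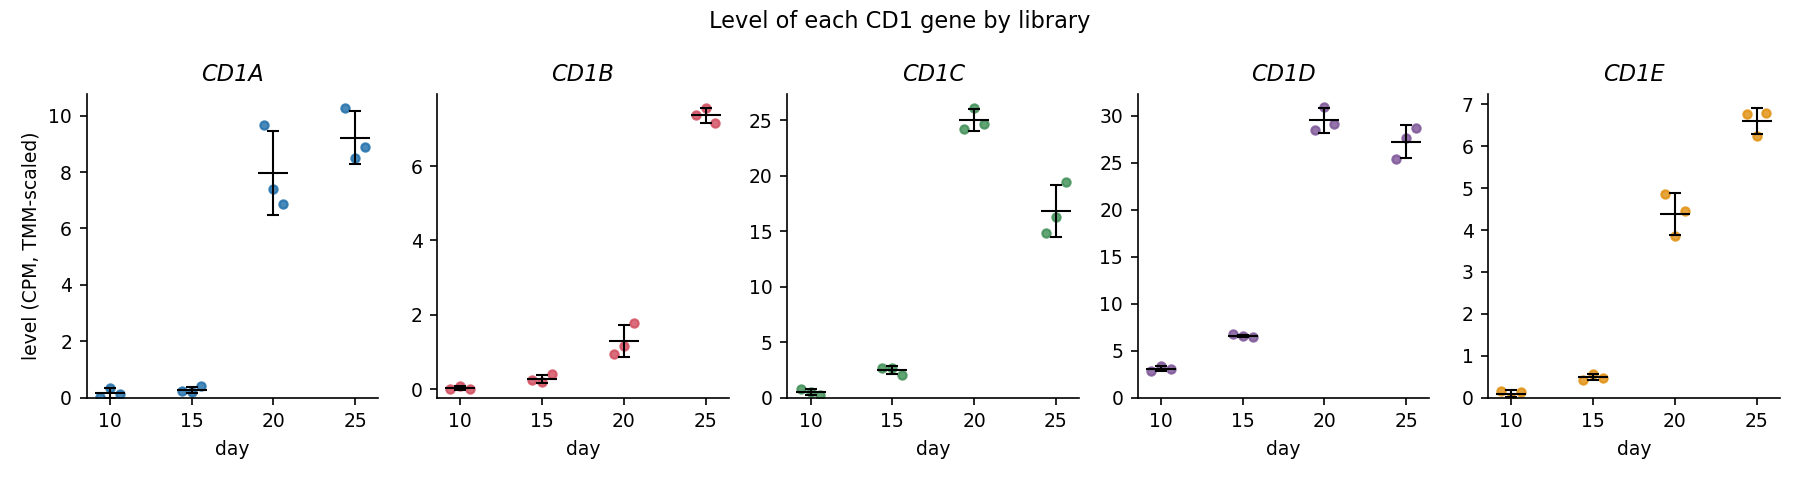
Level of each CD1 gene in every library (points, CPM after TMM scaling, vertical axis of its own in each panel) by day, with the mean and SD of 3 libraries (bars). CD1A and CD1D stand at similar levels on days 20 and 25, CD1C is lower on day 25 (16.9 CPM) than on day 20 (25.0 CPM), and CD1B is high on day 25 (7.37 CPM).

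The members' calls were read against those of all genes. CD1A, CD1B, CD1C and CD1E passed the filter through the later days, so higher values on those days than on the earlier ones were favoured by the filter, and the medians below are descriptions only. For day 15 over day 10, 4 of 5 members were called higher and none lower, against 42.4% of all genes called higher and 30.8% lower, and the median log2 change was 2.22 for the members and 0.20 for all genes tested. With only the libraries of those days in the fit, CD1C and CD1D were called. CD1A, CD1B and CD1E then did not pass the filter on low counts. For day 20 over day 15, 5 of 5 were called higher, against 40.6% of all genes higher and 36.0% lower, with medians of 3.15 and 0.10. For day 25 over day 20, 2 of 5 were called higher (CD1B and CD1E) and 1 lower (CD1C), against 24.5% higher and 25.1% lower, with medians of 0.21 and -0.03, so that these calls are near the background. All 5 members were called higher on day 25 than on day 10, where 38.6% of all genes were called higher and 36.0% lower, with medians of 5.60 and 0.02. The same held for day 20 over day 10 (36.7% of all genes higher, 34.2% lower, medians 5.39 and 0.03) and day 25 over day 15 (40.2% higher, 37.8% lower, medians 3.73 and 0.06). These comparisons share libraries and are not independent of each other.

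The scaling moved all genes together. TMM factors were 0.753 to 0.759 on day 15 and 1.03 to 1.17 on the other days, and plain library-size scaling moved the median change of all genes by -0.52 for day 15 over day 10, 0.62 for day 20 over day 15, -0.16 for day 25 over day 20 and 0.46 for day 25 over day 15. Of all genes called, 39.2% were then higher and 60.8% lower on day 15 than on day 10, against 57.9% and 42.1% under TMM. For day 20 over day 15 the split was 72.1% higher and 27.9% lower, against 53% and 47% under TMM, for day 25 over day 20 it was 31.5% and 68.5%, against 49.4% and 50.6%, and for day 25 over day 15 it was 66.6% and 33.4%, against 51.6% and 48.4%. Under that scaling, day 20 over day 15 was 5.39 for CD1A, 2.78 for CD1B, 3.97 for CD1C, 2.78 for CD1D and 3.77 for CD1E. No member changed direction in any comparison under the alternatives tried.

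**Figure D2:**
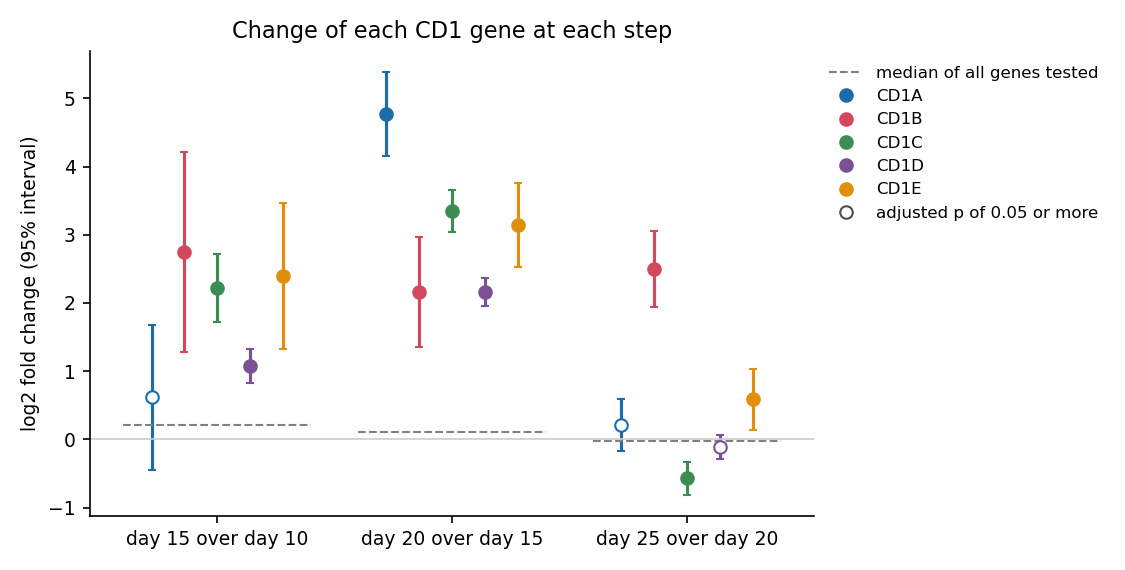
Log2 fold change of each CD1 gene at the 3 successive steps, with 95% intervals, and the median of all 20183 genes tested (dashed). Filled points had an adjusted p under 0.05. The 5 genes sit between 2.16 and 4.77 for day 20 over day 15, and spread from -0.57 (CD1C) to 2.50 (CD1B) for day 25 over day 20.

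The members were ranked within a day by their level per kilobase of exon. On day 10 CD1D led with 1.37 CPM per kb, CD1C followed with 0.363 CPM per kb, and CD1A (0.0824), CD1E (0.0444) and CD1B (0.024 CPM per kb) overlapped with their neighbours in that order. On day 15 the order was CD1D with 2.92 CPM per kb, CD1C with 1.72, CD1E with 0.225, CD1B with 0.203 and CD1A with 0.135, and the last 3 overlapped in turn. By day 20 CD1C led with 17.4 CPM per kb, ahead of CD1D with 13.1, CD1A with 3.8, CD1E with 1.99 and CD1B with 0.934, and no neighbours overlapped. On day 25 CD1D (12.1) and CD1C (11.7 CPM per kb) overlapped at the top, CD1B (5.28) had moved above CD1A (4.4), and CD1E (3) was last. With the longest transcript in place of all exons the order was the same on each day.

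The make-up of the family also changed, here as shares of counts that are not corrected for exon length. Per kilobase of exon the leader on day 20 was CD1C, with a share of 46.8 ± 1.08% against 35.1 ± 1.0% for CD1D, the reverse of the counts. CD1D held 79.1 ± 5.27% of the counts of the 5 genes on day 10, 65.1 ± 1.02% on day 15, 43.2 ± 1.43% on day 20 and 40.5 ± 1.25% on day 25 (F statistic, exact permutation over the 15400 divisions of 12 libraries into 4 days of 3, p = 0.00013). CD1C held 13.2 ± 6.62%, 24.4 ± 3.04%, 36.7 ± 1.01% and 25.0 ± 2.23% on the same days (exact p = 0.00065), its highest share being on day 20. CD1A held 4.24 ± 3.68%, 2.81 ± 1.15%, 11.7 ± 2.16% and 13.8 ± 1.86% (exact p = 0.0036). CD1B held 0.775 ± 1.34%, 2.81 ± 1.15%, 1.92 ± 0.678% and 11.0 ± 0.769% (exact p = 0.0032), and its 3 libraries of day 25 stood above the other 9. CD1E held 2.62 ± 2.28%, 4.9 ± 0.803%, 6.45 ± 0.806% and 9.82 ± 0.58% (exact p = 0.00026). These 5 tests have no direction and are not independent, since the shares sum to 100%, and rest on 400, 700, 6906 and 7017 CD1 counts a day.

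**Figure D3:**
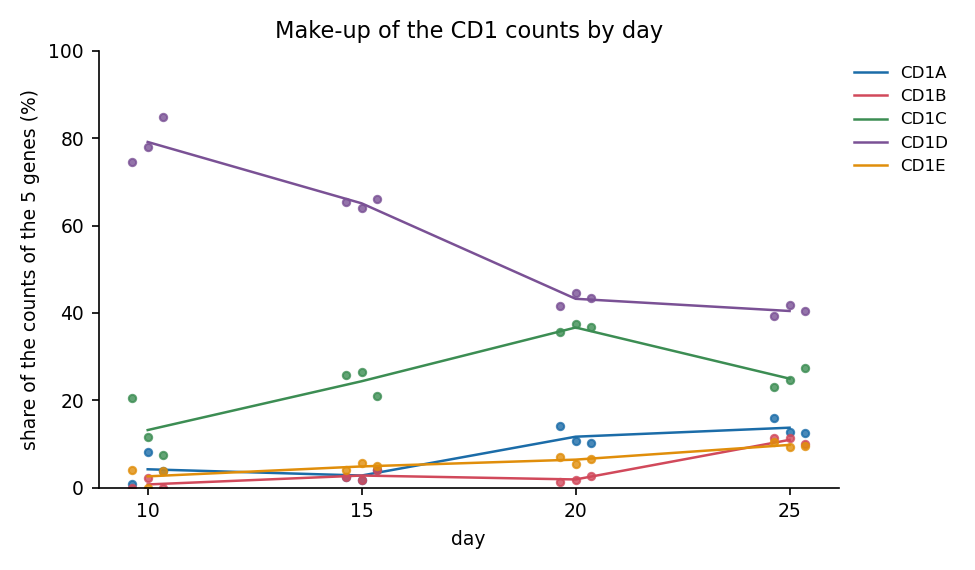
Share of the counts of the 5 CD1 genes held by each gene (percent, vertical axis from 0) by day, with a point for each library and a line through the means. CD1D falls to 40.5% on day 25, against 79.1% on day 10, CD1C is highest on day 20 (36.7%), and CD1B reaches 11.0% on day 25 only.

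Genes that assemble CD1 proteins and handle their lipids were followed in a list of 22. On day 25, 20 of them were called higher and 2 lower than on day 10, with a median log2 change of 2.67 against 0.02 over all genes tested, of which 38.6% were called higher and 36.0% lower. B2M, the light chain shared with MHC class I, was 4.42-fold higher (2004 ± 37.2 CPM on day 25, 453 ± 11.6 CPM on day 10, adjusted p = 6e-43). It was highest on day 15 (2174 ± 21.7 CPM) and was called lower on day 20 than on day 15 (-0.46 ± 0.028, adjusted p = 1.3e-18). The lysosomal proteases CTSS and CTSL, which act on the invariant chain and other substrates in the loading compartments, were at 1083 ± 30.0 and 566.5 ± 18.2 CPM on day 25, against 2.55 ± 0.888 and 9.9 ± 0.501 CPM on day 10. IFI30, a lysosomal thiol reductase, rose 8.58 ± 0.059 on the log2 scale. APOE, which carries lipids into antigen-presenting cells, was 43.4-fold higher on day 25 (2840 ± 32.85 CPM) than on day 10 (65.35 ± 3.185 CPM). Its level first fell, to 27.2 ± 2.79 CPM on day 15, and was 924.8 ± 26.1 CPM on day 20. The largest fold change of APOE between successive days was thus from day 15 to day 20. Its largest rise in CPM came between days 20 and 25, when the CD1 sum was alike.

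Of the genes of lipid transfer and loading named here, all but MTTP were abundant by day 25. GM2A, the GM2 activator, was at 1683 ± 25.7 CPM on day 25 and 309.2 ± 3.7 CPM on day 20 (log2 fold change 2.44 ± 0.032, adjusted p = 5.2e-42). LIPA, the lysosomal acid lipase, was 4.29-fold higher on day 25 than on day 20 (3200 ± 67.6 against 746.2 ± 18.4 CPM). CD74, the invariant chain, which also guides CD1d, was at 585.4 ± 17.7 CPM on day 25 and 15.2 ± 0.662 CPM on day 10. PSAP, the precursor of the saposins, was at 4064 ± 49.7 CPM on day 25 against 362.7 ± 8.81 CPM on day 10, and MTTP, which lipidates CD1d in the endoplasmic reticulum, at 1.34 ± 0.388 against 0.325 ± 0.0345 CPM (2.04 ± 0.491, adjusted p = 0.00028); both are named for their function, after their values were seen. Among the 2 genes called lower on day 25 than on day 10 was PDIA3, an oxidoreductase of heavy chain folding (-0.32 ± 0.033). In the separate steps, 15 of 22 were called higher and 4 lower on day 15 over day 10 (42.4% and 30.8% of all genes), 19 and 3 on day 20 over day 15 (40.6% and 36.0%), and 17 and 4 on day 25 over day 20 (24.5% and 25.1%).

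Genes of CD1 trafficking went in both directions. Of 16 listed, 8 were called higher and 5 lower on day 25 than on day 10, with a median log2 change of 0.25. Over all genes tested, 38.6% were called higher and 36.0% lower, with a median of 0.02. TFEB, a regulator of lysosomal genes, was at 32.6 ± 2.66 CPM on day 25 against 0.9 ± 0.198 CPM on day 10 (5.15 ± 0.152), and AP2A2, a subunit of the AP-2 adaptor that reads tyrosine motifs at the surface, rose 1.84 ± 0.054. AP2B1, another AP-2 subunit, fell by 0.93 on the log2 scale (SE 0.033), and RAB11A, of recycling endosomes, fell by 0.98 (SE 0.04).

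Other genes of the MHC class I-like fold were measured beside CD1. Of 10 listed, 7 were tested, and 4 were called higher and none lower on day 25 than on day 10, with a median of 0.97. The shares of all genes were 38.6% higher and 36.0% lower. MR1, which shows vitamin B metabolites to mucosal-associated invariant T cells, was at 65.1 ± 1.9 CPM on day 25 against 11.3 ± 0.184 CPM on day 10, and it was still higher on day 25 than on day 20 (0.91 ± 0.066, adjusted p = 1e-15). FCGRT, the neonatal Fc receptor, was 6.55-fold higher on day 25 than on day 10, and HFE, a regulator of iron uptake, stood at 16.6 ± 0.796 against 0.504 ± 0.119 CPM. MICB, a ligand of the NKG2D receptor, rose 0.97 ± 0.095 on the log2 scale. AZGP1, ULBP1 and ULBP2 did not pass the filter.

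Among 14 transcription factors listed for CD1 and dendritic cell genes, 11 were called higher and 3 lower on day 25 than on day 10, with a median log2 change of 2.18. The shares of all genes were 38.6% higher and 36.0% lower. On day 15 over day 10, 13 were called higher and 1 lower (42.4% and 30.8% of all genes). On day 25 over day 15, 6 were called higher and 7 lower (40.2% and 37.8% of all genes). The summed level of the 14 was highest on day 15, at 3086 to 3190 CPM, against 1554 to 1597 CPM on day 25. ELF1 and ZEB2 were also highest on day 15 (947.8 ± 13.9 and 691.2 ± 29.03 CPM). PPARG, a nuclear receptor that in human monocyte-derived dendritic cells raises CD1D and lowers CD1A, was at 26.5 ± 1.16 CPM on day 25 against 0.408 ± 0.0592 CPM on day 10. IRF4, a factor of type 2 dendritic cells, was at 7 ± 0.28 CPM on day 25 and 8.71 ± 0.432 CPM on day 20, a difference that was not called (-0.32 ± 0.173, adjusted p = 0.13). IRF8, of type 1 and plasmacytoid dendritic cells, was at 95.3 ± 2.3 CPM on day 25 against 2.31 ± 0.432 CPM on day 10, and KLF4 was 20.9-fold higher. SPI1, which encodes PU.1 and is named after its value was seen, stood at 505.2 ± 16.1 CPM on day 25 against 55.4 ± 1.76 CPM on day 10. The 3 called lower were LEF1, which is known to repress CD1D in human T cells, with 5.2 ± 0.876 against 15.2 ± 0.979 CPM, ELF1 (-1.27 ± 0.035) and ZEB2 (-0.32 ± 0.033).

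Cytokine signals known to set CD1 levels in cultured monocytes were also listed. Of 12 genes, 10 were tested, and 8 were called higher and 2 lower on day 25 than on day 10, against 38.6% and 36.0% of all genes. IL4R and IL13RA1, chains of the interleukin-4 receptors, were at 186.6 ± 6.34 and 200.7 ± 3.33 CPM on day 25, against 7.17 ± 0.655 and 23.2 ± 0.593 CPM on day 10. Transcripts of IL4 itself amounted to 2 counts on day 25 and 0 on day 10. TGFB1, whose product supports Langerhans cells, was at 374.3 ± 8.58 CPM on day 25 against 1101 ± 13.2 CPM on day 10, while BMP7, a related ligand, rose 15.3-fold. FLT3, the receptor of a ligand in the medium, was at 0 counts on day 10 and at 0.749 ± 0.0233 CPM on day 25, and it was highest on day 20 with 2.76 ± 0.714 CPM.

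Markers of the cell types that carry CD1 differed in how they moved, and their part in the CD1 levels was not tested. The counts for day 25 over day 10 in this and the following paragraphs stand against 38.6% of all genes called higher and 36.0% lower. Among 14 monocyte and macrophage markers, 14 were called higher on day 25 than on day 10, and their summed level ran from 10540 to 10960 CPM on day 25 against 187.4 to 198.2 CPM on day 10. Of 10 markers of type 2 conventional dendritic cells, 8 were called higher and 1 lower, with sums of 1628 to 1636 CPM on day 25 and 81.2 to 86.4 CPM on day 10. In this type 2 list, ITGAX and SIRPA accounted for 728.2 ± 6.73 and 679.4 ± 8.66 CPM of the day 25 sum. CLEC10A, a lectin of these cells, was 13.8-fold higher on day 20 than on day 15, with 16.5 ± 2.68 CPM on day 20 against 1.19 ± 0.281 CPM on day 15, and 19.1 ± 1.66 CPM on day 25. FCER1A, the high-affinity IgE receptor chain that they also carry, stayed low, at 1.38 ± 0.244 CPM on day 25 and 2.1 ± 0.0948 CPM on day 20, a difference that was not called (adjusted p = 0.17). HLA-DRA was at 135.8 ± 5.97 CPM on day 25 against 0.0604 ± 0.00906 CPM on day 10.

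Langerhans cell markers were mostly higher on day 25 than on day 10, but langerin peaked earlier. Of 10 listed, 9 were called higher on day 25 than on day 10 and none lower, with sums of 1057 to 1066 CPM on day 25 against 11.0 to 12.2 CPM on day 10. ITGAX and HLA-DRA, which the type 2 list also holds, accounted for 728.2 ± 6.73 and 135.8 ± 5.97 CPM of the day 25 sum. RUNX3 added 147.9 ± 0.717 CPM to this sum of Langerhans cell markers. CD207, or langerin, the defining lectin of these cells, was at 0.00836 ± 0.0145 CPM on day 10, 5.82 ± 0.522 CPM on day 15, 3.27 ± 0.862 CPM on day 20 and 0.159 ± 0.145 CPM on day 25. It held 15 counts on day 25 against 1 on day 10, which was called higher, although the libraries of these days overlapped. It was called lower on day 25 than on day 20 (-4.45 ± 0.44, adjusted p = 1.4e-11). CDH1, the cadherin by which Langerhans cells hold to keratinocytes and which epithelia share, was at 29.1 ± 0.838 CPM on day 25 and 164.1 ± 4.56 CPM on day 20. CD209, a lectin of monocyte-derived dendritic cells and some macrophages, was at 17.9 ± 1.11 CPM on day 25, 15.4 ± 1.09 CPM on day 20 and 0 counts on day 10.

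Markers of the other dendritic cell types were measured too. CLEC9A, of type 1 conventional dendritic cells, was at 0.536 ± 0.138 CPM on day 25, and CLEC4C, of plasmacytoid dendritic cells, at 0.597 ± 0.192 CPM. Of 8 type 1 markers, 8 were called higher on day 25 than on day 10, with summed levels of 442.9 to 473.5 against 28.9 to 31.6 CPM. WDFY4, IRF8, CADM1 and THBD accounted for 223.1 ± 13.4, 95.3 ± 2.3, 87.8 ± 2.16 and 49.0 ± 0.878 CPM of that day 25 sum. BATF3, IDO1 and XCR1 were at 1.02 ± 0.215, 0.671 ± 0.258 and 0.614 ± 0.163 CPM on day 25. Plasmacytoid markers had 6 of 8 called higher and 1 lower, with sums of 556.3 to 576.8 against 133.4 to 137.1 CPM. NRP1 accounted for 462.3 ± 6.44 CPM of the day 25 sum. Markers of mature dendritic cells had 9 of 9 called higher, with sums of 548.8 to 573.3 CPM on day 25 against 133.1 to 142.5 CPM on day 10. Of 9 markers of monocyte-derived dendritic cells, 8 were called higher and 1 lower, with sums of 355.2 to 364.2 against 286.6 to 297.3 CPM. These sums hide a change of genes. CD226, the 1 called lower, held 285.6 ± 6.02 CPM on day 10 and 12.2 ± 0.366 CPM on day 25. MRC1 and CCL22 were at 150.8 ± 3.62 and 148.2 ± 5.94 CPM on day 25, against 2.67 ± 0.709 and 0.391 ± 0.144 CPM on day 10.

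B-cell markers were close to absent. MS4A1, the defining surface marker CD20, was at 0 counts on day 25, and the 8 listed genes summed to 1.39 to 1.64 CPM on day 25 against 4.25 to 4.54 CPM on day 10. Of the 3 B-cell genes tested, none was called higher and 1 lower on day 25 than on day 10.

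Cortical thymocytes carry CD1a, CD1b, CD1c and CD1d, and their markers went in several directions. Of 21 listed, 12 were tested, with 7 called higher and 4 lower on day 25 than on day 10, and sums of 478.3 to 478.7 CPM on day 25 against 78.1 to 79.9 CPM on day 10. CD4, which macrophages make as well, accounted for 406.8 ± 2.4 CPM of the day 25 sum. CD8B, CD3D, CD3G and DNTT were at 0 counts on day 25. PTCRA, the pre-T receptor alpha chain, was at 7.47 ± 0.504 CPM on day 10, 182.5 ± 7.39 CPM on day 15, 1.64 ± 0.26 CPM on day 20 and 6.1 ± 0.206 CPM on day 25. RAG1, a recombinase subunit, was at 3.11 ± 0.634 CPM on day 25 and 4.17 ± 0.818 CPM on day 10. CD7, of early T cells, was at 2.21 ± 0.169 CPM on day 25 against 18.4 ± 1.83 CPM on day 10.

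Gamma-delta T-cell markers, the identity named by the day 25 label, summed to 32.0 to 34.6 CPM on day 25, 52.95 to 56.53 CPM on day 20 and 10.7 to 11.1 CPM on day 10. SOX13, TRGC1 and TRGC2 accounted for 15.1 ± 0.582, 10.0 ± 0.871 and 4.9 ± 0.0443 CPM of the day 25 sum, and ZAP70 for 2.11 ± 0.367 CPM. TRDC (0.379 ± 0.299 CPM), CD3E (0.168 ± 0.105), LCK (0.125 ± 0.0809) and CD247 (0.0848 ± 0.0804) added little on day 25. CD3D and CD3G were at 0 counts on that day. Of 10 listed, 7 were tested, and 5 were called higher and none lower on day 25 than on day 10, and 1 was called higher and 4 lower on day 25 than on day 20, where 24.5% of all genes were called higher and 25.1% lower. Markers of the natural killer T cells that see CD1d had 4 of 8 tested, 2 of them called higher and 2 lower on day 25 than on day 10, and TRAV10, the alpha segment of their receptor, was at 0 counts on every day.

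Markers of other lineages shifted in the same steps. Megakaryocyte markers, 7 of 7, were called lower on day 25 than on day 10, and summed to 384.2 to 392.3 CPM on day 20 against 22310 to 23210 CPM on day 15. Mast cell and eosinophil markers summed to 1120 to 1166 CPM on day 25 and 5390 to 5569 CPM on day 20, and 8 of 8 were called higher on day 25 than on day 10. Epithelial and hepatic markers summed to 505.2 to 522.3 CPM on day 25 and 1641 to 1716 CPM on day 20, with 8 of 8 called higher on day 25 than on day 10. Stromal markers summed to 4553 to 4627 CPM on day 25 and 6832 to 6949 CPM on day 20, with 6 of 6 called higher on day 25 than on day 10. The part of these shifts in the CD1 values, which are relative to all RNA in the library, was not tested.

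**Figure D4:**
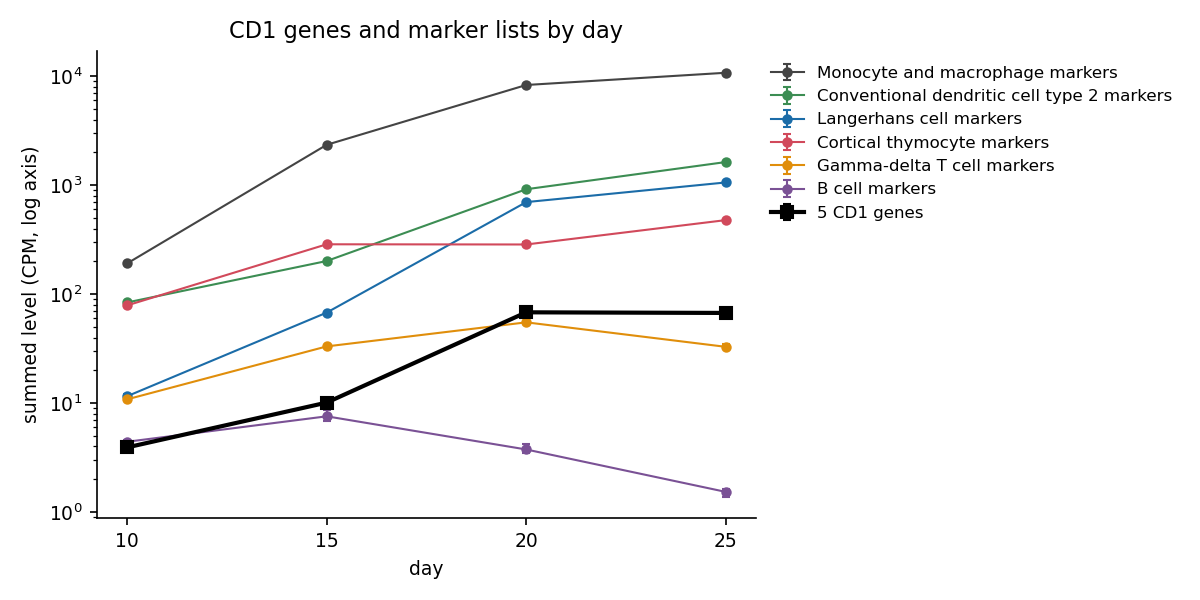
Summed level (CPM, log axis) of the 5 CD1 genes and of 6 marker lists by day, as the mean with bars from the lowest to the highest of 3 libraries. The CD1 sum is 68.2 CPM on day 20 and 67.3 CPM on day 25, while B-cell markers are at most 1.64 CPM on day 25 and monocyte and macrophage markers at least 10540 CPM.

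The chromosomal neighbours did not share the profile as a block. Within 500 kb of the CD1 genes, 25 other genes were in the table, 13 of them with 0 counts in all libraries, and 6 were tested. Of 13 olfactory receptor genes, 8 were at 0 counts. Between CD1D and CD1A lay ENSG00000176320, a long noncoding RNA, at 1.02 ± 0.201 CPM on day 25 against 0.0829 ± 0.0456 CPM on day 10 (log2 fold change 3.61, adjusted p = 9.4e-06), and like CD1B it was called higher on day 25 than on day 20 (1.82, adjusted p = 0.0077). On the far side, MNDA, a nuclear protein of myeloid cells, was at 238.8 ± 11.0 against 0.417 ± 0.192 CPM. KIRREL1, on the side of CD1D, was at 44.1 ± 3.34 CPM on day 25 and 50.1 ± 1.71 CPM on day 10.

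**Figure D5:**
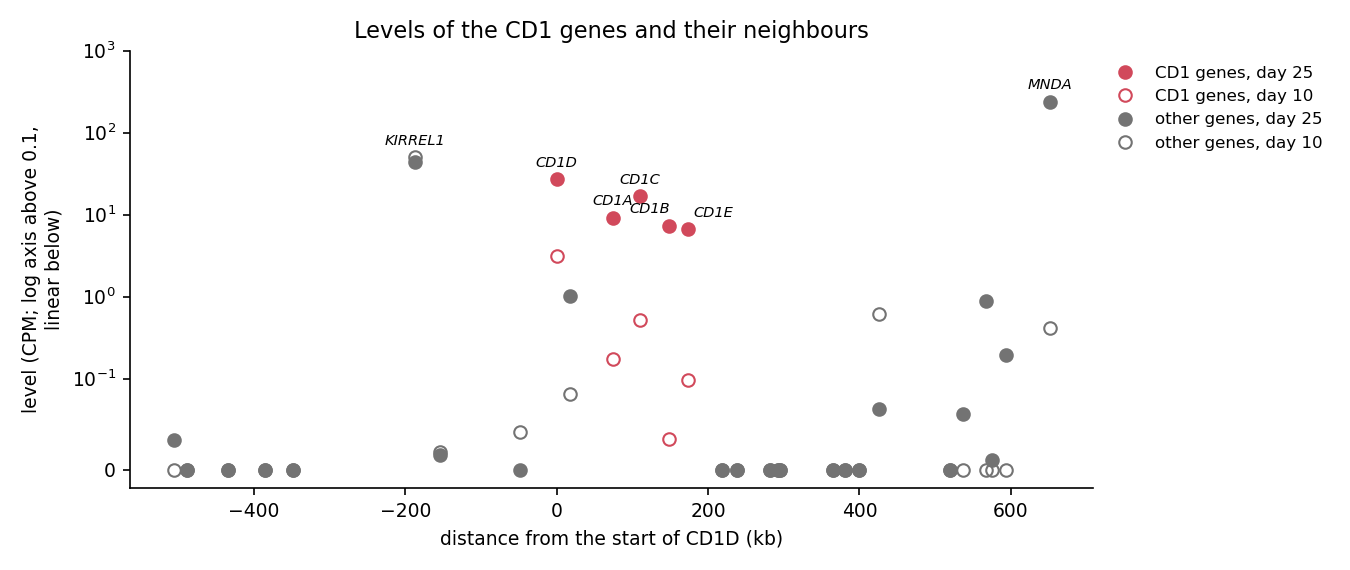
Mean level on day 25 (filled) and day 10 (open) of the CD1 genes and of other genes within 500 kb, by distance from the start of CD1D (kb). The vertical axis is in CPM, logarithmic above 0.1 and linear below. The CD1 genes are higher on day 25, MNDA is higher (238.8 against 0.417 CPM), KIRREL1 is at 44.1 against 50.1 CPM, and most other neighbours sit at 0.

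Likeness between profiles was described by the Pearson correlation of log2 CPM over 12 libraries, which share depth and day, so values are high throughout. Among the members, CD1C and CD1D were most alike (0.985) and CD1B and CD1C least (0.867). Of 13050 genes compared, 445 to 725 correlated above 0.95 with a given member, so the leading names carry little weight by themselves. CD1D was most like TRERF1, FUCA1, EGR1, B4GALT5 and PDGFRB (0.997 to 0.999), among which FUCA1, a lysosomal fucosidase, was at 353.2 ± 4.04 CPM on day 25, 387.8 ± 8.16 CPM on day 20 and 10.7 ± 0.267 CPM on day 10. CD1C was most like IMPA2, DIAPH2, TRIM36, P2RY6 and C5orf15 (0.992 to 0.996), and IMPA2, an inositol monophosphatase, was at 26.4 ± 1.85 CPM on day 25 against 38.2 ± 1.85 CPM on day 20. CD1A was most like CD248, STAT4, FBXO44, FAM114A1 and TLX2 (0.986 to 0.988). CD1B was most like KLHL36, NFKBID, SUN2, PLXNA3 and LGALS9B (0.987 to 0.99), of which LGALS9B, a near copy of a galectin gene whose reads may be split between copies, was at 5.71 ± 1.1 CPM on day 25 against 0.869 ± 0.0387 CPM on day 20. CD1E was most like SNAI3, CYB561, TMOD2, GPNMB and PLPPR2 (0.988 to 0.996), and GPNMB, a glycoprotein of lipid-laden macrophages, was at 1776 ± 37.9 CPM on day 25 against 634.9 ± 18.4 CPM on day 20.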

How the data were processed

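Per the labels, total RNA was made into libraries by ligation-mediated sequencing and read as single reads. The authors deposited raw counts per gene and library, which are not normalised, per the file headers. The submitters' processing notes name GRCh38. Aligner, counter, annotation, read length and use of strand: not given in the sources used.

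Symbols were found for 36366 of 36601 IDs, and where IDs shared 1 of 19 symbols, it went to the ID with most counts. Genes at a count of 2 outnumbered genes at 1 in all 12 libraries, so counts may not be independent fragments. Lengths, coordinates and coding sequences are from GENCODE release 29 and promoters from RefSeq. The counts were fitted with edgeR 4.0.16 under R 4.3.3. Here filterByExpr with a minimum count of 10 kept 20183 genes, scaling was by TMM, and all 12 libraries entered a quasi-likelihood fit (robust, no covariate, common coefficient of variation 6%). Benjamini-Hochberg adjustment ran over all genes tested, with calls under 0.05. The fit was run on simulated counts in which a small set of genes changed, balanced in direction and above a minimum expected count. That run does not cover the low counts of day 10 or the shifts in scaling. Log2 CPM used a prior count of 2. Alternatives were other scalings and filters, DESeq2 1.42.0, limma 3.58.1 (voom), a replicate block, only the days compared and leaving out each library. Shares were compared by exact permutation. Tables and figures used Python 3.11.15, pandas 2.3.3 and matplotlib 3.10.9.

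The members, gene lists and tests were chosen with earlier results of these data known. Named list genes are those with the largest changes among called genes at 1 CPM or more (up to 4 over the whole course and 2 at each step), a fixed panel of defining markers whatever their values, and the 5 genes most like each member. A few genes of the lists and of the locus are not reported here.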

Additional observations from a re-analysis of the deposited data

How the results depend on the processing

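No member changed direction in any of the 6 comparisons under another scaling, filter, tool or left-out library. For day 15 over day 10, CD1A ranged from 0.15 to 1.76 (log2) when libraries were left out, and was called only without day 10 replicate 2. With only the 2 days compared in the fit, CD1C and CD1D were called higher in that step. CD1A, CD1B and CD1E then did not pass the filter on low counts. For day 25 over day 20, library-size scaling gave -0.28 for CD1D (adjusted p = 0.0066) and 0.42 for CD1E (adjusted p = 0.12), so that 1 member was called higher and 2 lower. CD1E ranged from 0.50 to 0.67 and the members called higher from 1 to 2 when libraries were left out. The cause of the changes under library-size scaling and left-out libraries was not tested. The lists of 5 genes most like each member changed under 10 of 15 alternatives. Counts over all genes stayed within 1.5 times in 239 of 240 alternatives.

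Replicate numbers did not pair the libraries, since deviations of same-numbered libraries correlated between -0.0164 and 0.0156, and the replicate block changed no call of a member. Depth limits CD1A, CD1B and CD1E on day 10, where 3 counts in a library come to 0.0753 to 0.101 CPM and single libraries decide the fold. Weighting shares by exon length was added after seeing the data and left each exact p under 0.05, from 0.00013 to 0.0049.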
